A study of Homo sapiens with 18 samples.

Results

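The cytosine base editor SpCBE, delivered with a guide against NRF1 or with an intergenic guide, made up 6 of the 18 RNA-seq libraries analysed. Its 6 libraries were chosen by their labels alone and not by any measured value. SpCBE joins the cytosine deaminase evoCDA1 to a nickase form of Cas9 from Streptococcus pyogenes. The 2 SpCBE groups were HEK293T cells transfected with the evoCDA1 nickase plasmid carrying the NRF1 splice-site guide (3 libraries) and HEK293T cells transfected with the same plasmid carrying an intergenic guide (3 libraries). The other 12 libraries came from the adenine editors SpABE, which puts the adenine deaminase ABE8e on the same nickase, and SaABE, which puts ABE8e on the nickase of Staphylococcus aureus, with 3 NRF1-guide and 3 intergenic-guide libraries each. In every group 750000 cells were transfected, selected with puromycin for 48 hours and lysed 72 hours after transfection, so the intergenic-guide cells carried an active editor and had been selected too. HEK293T is an established human embryonic kidney line, cells were transfected in bulk, and the labels do not say whether replicates came from different cultures. The p-values below therefore weigh effects against a spread among libraries that may be technical. In such bulk RNA, fewer cells of a kind and less RNA per cell cannot be told apart.

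NRF1 (nuclear respiratory factor 1) is a transcription factor that binds GC-rich palindromes, most often close to the start of a gene. It is known for genes of the respiratory chain and of mitochondrial biogenesis, and also for genes of cilia, replication and chromatin. A cytosine base editor turns a C into a T through a uracil intermediate, within a short window of the strand that the guide does not pair with, and changes the opposite strand's G to A in effect. Changing the G of a splice acceptor keeps the splicing machinery from using that exon border, and the exon is skipped.

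The guide that carried the editing, its control and the border it points at are shown because the whole comparison rests on them. Both guides are written 5′ to 3′ in their own strand, and the capital in the NRF1 guide marks the cytosine opposite the G of the acceptor.
SpCBE NRF1 guide: gaaacCtgtcaccaaatgac
SpCBE intergenic guide: ttgactgcacacaactgggc
The NRF1 guide matched chr7:129710359-129710378 (hg38, minus strand), next to the motif CGG, with 5 bases in exon 7 of NRF1 and the others in the intron before it. Exon 7 of 11 runs from 129710374 to 129710571 and its 198 bases make 66 codons. The guide has 6 cytosines, at positions 5, 6, 10, 12, 13 and 20 counted from its 5′ end, and position 6 pairs with the acceptor G at 129710373. The intergenic guide matched chr13:102967577-102967596 (hg38, plus strand) next to TGG, and also has 6 cytosines. The plus strand of chr7:129710334-129710393 shows the border itself, with the acceptor AG in capitals.
NRF1 exon 7 acceptor: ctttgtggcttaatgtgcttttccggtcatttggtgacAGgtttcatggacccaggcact
SpABE was given a guide on the opposite strand of the same border, whose capital A is the adenine of that acceptor.
SpABE NRF1 guide: gtgacAggtttcatggaccc
SpCBE and SpABE therefore shared the nickase, the intergenic guide and the targeted border, and differed in deaminase and NRF1 guide. SaABE was directed at the border downstream of the exon.

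The 6 SpCBE libraries held 31676102 to 40687447 estimated counts. Transcripts of the mitochondrial genome took 0.939% to 1.03% of counts in NRF1-guide libraries and 1.04% to 1.09% in intergenic-guide libraries. The 10 most abundant genes took 3.97% to 4.10% in NRF1-guide libraries and 3.86% to 3.90% in intergenic-guide libraries. On the first principal component, with 37.1% of the variance of the 6 libraries, the guides lay on opposite sides. Markers fitting HEK293 cells (PAX2, NEFL, NEFM, CDH2, VIM, SOX4 and NES) summed to 1089 to 1114 CPM (counts scaled to a common library size) in NRF1-guide libraries and 1100 to 1121 CPM in intergenic-guide libraries. Markers of epithelium, fibroblasts and blood summed to at most 10.4, 23.6 and 4.73 CPM with the NRF1 guide and 11.9, 25.9 and 4.01 CPM with the intergenic guide.

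NRF1 itself rose with SpCBE, and further than the mean of the adenine editors. Its level was 38.3, 39.5 and 43.8 CPM in the 3 NRF1-guide libraries, against 24.4, 25.0 and 26.02 CPM in the 3 intergenic-guide libraries. The groups did not overlap. The guide effect, a log2 fold change, was 0.69 ± 0.054 (SE, edgeR quasi-likelihood test, Benjamini-Hochberg adjusted p = 4.15e-10), against 0.45 with SpABE and 0.32 with SaABE. The difference between the SpCBE effect and the mean of the 2 adenine editors was 0.30 ± 0.067 (SE, edgeR adjusted p = 0.00826). It was 0.24 against SpABE alone (edgeR adjusted p = 0.0559) and 0.37 against SaABE alone (edgeR adjusted p = 0.00667). With the NRF1 guide SpCBE cells averaged 40.5 ± 2.93 CPM and SpABE cells 38.3 ± 3.02 CPM, and with the intergenic guide 25.2 ± 0.810 and 28.0 ± 1.12 CPM (SD, n = 3 each). SaABE cells averaged 40.2 CPM with the NRF1 guide and 32.2 CPM with the intergenic guide. The editors thus lay further apart with the intergenic guide. SpCBE stood 0.079 above SpABE on the log2 scale with the NRF1 guide (edgeR adjusted p = 0.253). With the intergenic guide the value was -0.157 (edgeR adjusted p = 0.0335). A count per gene includes transcripts with and without exon 7 and does not measure skipping.

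With SpCBE, 789 of 17743 tested genes passed an adjusted p of 0.05 and an absolute log2 fold change of 0.5, which is 4.45% of all tested genes. Of these, 149 rose (0.840% of tested genes) and 640 fell (3.61%). At the adjusted p alone the directions were nearer balance, with 1952 genes higher (11%) and 2138 lower (12%). The groups did not overlap for 776 of the 789 called genes, against 38.7% of all tested genes. The median log2 fold change of all genes was 0.01.

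The 12 largest falls, among called genes averaging at least 5 CPM with groups that did not overlap, ranged from -2.57 to -1.52 on the log2 scale. FRRS1L, which helps to assemble AMPA-type glutamate receptors in neurons, had 1.499, 1.84 and 1.36 CPM in NRF1-guide libraries, against 9.49, 9.44 and 8.93 CPM in intergenic-guide libraries. It had the largest fall of the 12, with a log2 fold change of -2.57 and an SE of 0.141 (edgeR adjusted p = 4.5e-13). BBS2, a subunit of the BBSome that carries membrane proteins into cilia, had 6.46, 6.51 and 6.04 CPM with the NRF1 guide, against 30.4, 29.96 and 32.6 CPM with the intergenic guide. ADCY1, a calmodulin-activated adenylyl cyclase, had 7.28, 8.88 and 8.16 CPM in NRF1-guide libraries, against 31.5, 33.9 and 32.2 CPM in intergenic-guide libraries. Groups that did not overlap were a condition for naming these genes, and 38.7% of all tested genes met it. RABIF, a chaperone of Rab proteins, had 5.59, 4.71 and 5.89 CPM with the NRF1 guide, against 19.5, 19.9 and 21.4 CPM with the intergenic guide. MRS2, a magnesium channel of the inner mitochondrial membrane, was the most abundant of the 12, with 33.9, 31.8 and 33.6 CPM in NRF1-guide libraries, against 96.9, 94.8 and 98.1 CPM in intergenic-guide libraries. Its replicates differed by little beside that gap, and its edgeR adjusted p of 7.3e-20 was the smallest among the named falls.

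PNMA8A, a paraneoplastic antigen family gene, had 24.1, 22.5 and 24.2 CPM with the NRF1 guide, against 72.1, 80.7 and 77.0 CPM with the intergenic guide. N6AMT1, a methyltransferase that needs the partner TRMT112, had 5.80, 4.85 and 4.82 CPM in NRF1-guide libraries, against 16.6, 16.7 and 16.9 CPM in intergenic-guide libraries. VASH1, a tubulin carboxypeptidase that removes the last tyrosine of alpha-tubulin, had 10.4, 10.1 and 10.4 CPM with the NRF1 guide, against 31.4, 30.7 and 32.9 CPM with the intergenic guide. N6AMT1 was the least abundant of these 3 genes and PNMA8A the most abundant. The other members were ABHD14A (log2 fold change -1.57), which overlaps a neighbouring gene on the same strand and is uncertain for that reason, ANKRD26 (-1.55), PPIC (-1.53), a cyclophilin, and SLC2A11 (-1.52), a sugar transporter. PUDP (-1.38), a phosphatase, and YEATS4 (-1.51), which reads acetylated histones, were followed in the study as NRF1 targets together with ANKRD26, and both fell as well.

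The 12 largest rises ranged from 0.88 to 1.97, and 1 of them is not reported here. KDM8, a JmjC-domain oxygenase, had 25.3, 24.8 and 26.9 CPM in NRF1-guide libraries, against 6.02, 6.36 and 7.28 CPM in intergenic-guide libraries. Its log2 fold change of 1.97 ± 0.082 (SE, edgeR adjusted p = 2.3e-15) was the largest rise. TMEM143, a mitochondrial membrane protein of unclear role, had 24.1, 22.4 and 24.3 CPM with the NRF1 guide, against 7.66, 8.85 and 8.44 CPM with the intergenic guide. INO80C, which belongs to the nucleosome-moving INO80 complex, had 59.2, 55.0 and 58.6 CPM in NRF1-guide libraries, against 25.6, 24.3 and 26.9 CPM in intergenic-guide libraries. ATF5, a transcription factor of the mitochondrial stress response, had 55.0, 50.02 and 53.2 CPM with the NRF1 guide, against 23.2, 24.2 and 26.4 CPM with the intergenic guide. These rises too were named under the condition that the groups did not overlap, which 38.7% of all tested genes met. The remaining rises were TCEANC (1.13), IFT122 (0.98), a part of the transport machinery of cilia, COQ3 (0.96), a methyltransferase of coenzyme Q synthesis, BTD (0.94), which recycles biotin, MRPL54 (0.93), a protein of the mitochondrial ribosome, RCBTB2 (0.93) and MSRA (0.88), which repairs oxidised methionine.

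**Figure D1:**
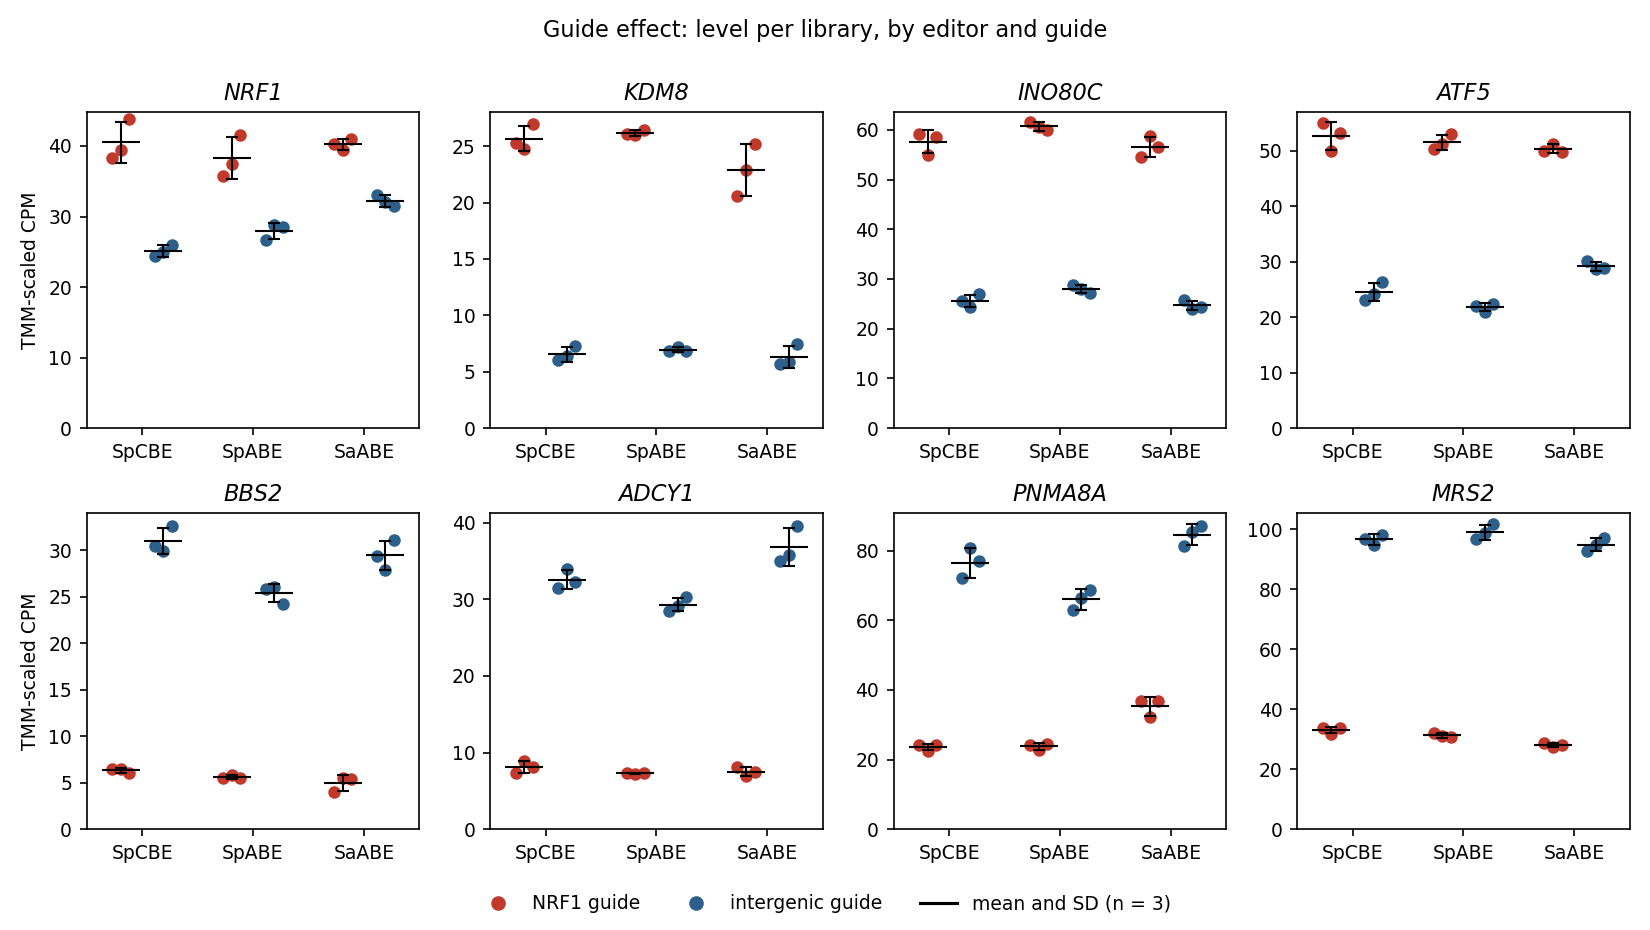
Level per library of NRF1, 3 of the largest rises and 4 of the largest falls (y axis, TMM-scaled CPM, starting at 0), by editor (x axis), with red points for NRF1-guide libraries, blue points for intergenic-guide libraries and black bars for mean and SD (n = 3). With SpCBE, BBS2 averaged 6.33 CPM with the NRF1 guide and 31.0 CPM with the intergenic guide. No overlap between the SpCBE groups was a condition for naming the rises and falls, which 38.7% of all tested genes met.

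None of these 24 largest changes was called as different from the adenine editors at the fold threshold of 0.5. The difference between the SpCBE effect and the mean of the adenine editors ranged from -0.33 to 0.42 over the 24 genes and passed the adjusted p for 5 of them (edgeR, over all 17743 genes). PNMA8A fell further with SpCBE, with a log2 fold change of -1.70 against -1.47 with SpABE and -1.26 with SaABE and a difference of -0.33 (edgeR adjusted p = 0.00309). PPIC likewise fell further, with -1.53 against -1.25 and -1.15 and a difference of -0.33 (edgeR adjusted p = 0.0116). N6AMT1, VASH1 and MRS2 fell less with SpCBE, with differences of 0.42, 0.26 and 0.16 (edgeR adjusted p = 0.0133, 0.0452 and 0.0276). For KDM8 the log2 difference was 0.09 ± 0.105 (SE) and for BBS2 0.08 ± 0.095 (SE); neither passed the test, which does not show that the editors acted alike.

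The promoters of the genes that fell were read for the NRF1 motif GCGCANGCG, or CGCNTGCGC on the other strand, in a window from 250 bases before to 50 bases after the start of the canonical transcript (GENCODE 44 on hg38). The motif was present in 322 of 635 called-lower promoters (50.7%), in 15 of 145 called-higher promoters (10.3%) and in 1929 of 16831 promoters of genes not called (11.5%). Over all 17611 tested genes with a promoter the share was 12.9%, and over all 62663 promoters of the annotation it was 4.63%. The size of the fall made little difference to that share, which was 50.3% for falls of over 1 on the log2 scale and 50.9% for falls between 0.5 and 1. The motif was found in 9 of the 12 largest falls and in 2 of the 11 largest rises whose promoters were read singly, which leaves out MSRA. It was absent from the windows of FRRS1L, BBS2 and MRS2, which says only that these letters are not in those 300 bases.

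Windows of 33 bases around the first match are shown for 5 genes that fell, which differ in function but share the capital run, and for TMEM143, which holds the motif and rose. Each is in the direction of its gene (GENCODE 44, hg38), and all lie upstream of the annotated gene.
PUDP promoter, chrX:7148277-7148309, minus strand: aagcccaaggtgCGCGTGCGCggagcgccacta
ANKRD26 promoter, chr10:27100519-27100551, minus strand: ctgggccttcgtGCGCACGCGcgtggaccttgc
YEATS4 promoter, chr12:69359661-69359693, plus strand: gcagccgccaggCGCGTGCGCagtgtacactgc
RABIF promoter, chr1:202889246-202889278, minus strand: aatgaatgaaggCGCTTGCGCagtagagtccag
POLA2 promoter, chr11:65261810-65261842, plus strand: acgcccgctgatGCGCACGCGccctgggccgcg
TMEM143 promoter, chr19:48364091-48364123, minus strand: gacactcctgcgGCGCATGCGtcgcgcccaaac
These 6 promoters held 2 or 3 matches each, and that of N6AMT1 held 5. Read the other way round, by motif rather than by change, the 2266 tested genes with the motif had a median log2 fold change of -0.11 with SpCBE, and 14.2% of them were called lower. The corresponding medians were -0.13 with SpABE and -0.12 with SaABE, with 16.6% and 16.3% called lower. Genes without the motif had a median of 0.02 with SpCBE and 2.04% called lower.

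**Figure D2:**
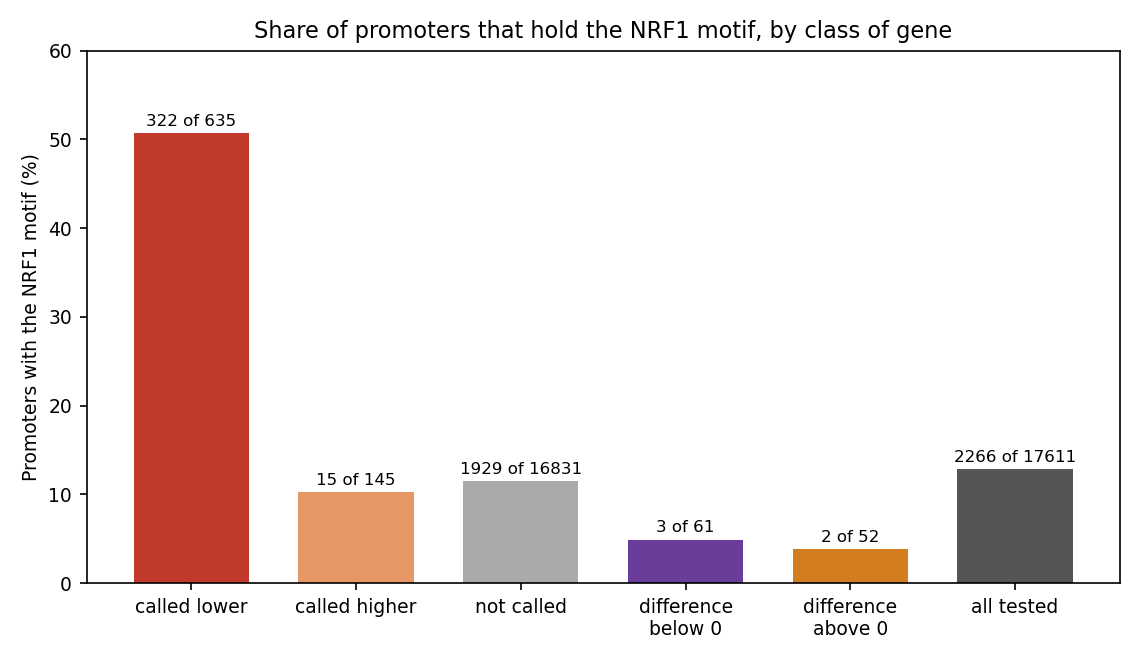
Share of promoters with the NRF1 motif (y axis, percent, starting at 0) for genes called lower, called higher and not called with SpCBE, for genes whose SpCBE effect was called below or above that of the adenine editors, and for all tested genes (x axis), with the counts above the bars. The share was 50.7% among called-lower genes and 12.9% among all tested genes, and 4.92% and 3.85% in the bars for differences below and above 0.

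Cytosolic ribosomal protein genes were higher at the adjusted p with SpCBE for 75 of 79 members and lower for 1. Their median log2 fold change was 0.15, and over all tested genes 11% were higher and 12% lower. The rise was shared, with 71 of the 79 higher with SpABE (median 0.16) and 73 with SaABE (median 0.20). With SpCBE the proteasome had 19 of 33 members higher and 1 lower, and complex V of the respiratory chain 11 of 16 higher and none lower. The mitochondrial ribosome had 36 of 77 higher and 6 lower, and aminoacyl-tRNA synthetases 13 of 23 higher and 1 lower, by edgeR's quasi-likelihood test. In the same order, 22, 7, 17 and 7 members were higher with SpABE, and 19, 9, 39 and 13 with SaABE. Over all tested genes 15.4% were higher with SpABE and 16.9% with SaABE. In these 5 lists MRPL54 was the one member past both thresholds with SpCBE. In complex I, 16 of 37 members were higher and 6 lower with SpCBE. With SpABE 12 were higher and 10 lower, and with SaABE 18 and 7. The 2 of 37 members called with SpCBE, NDUFA8 (-0.76) and NDUFB8 (-0.62), fell, against 3.61% of all tested genes called lower. With SpABE and with SaABE 2 members of complex I were called lower as well. SDHA (-0.71), the catalytic subunit of succinate dehydrogenase, and UQCRC1 (-0.52), a core subunit of complex III, fell too with SpCBE. Of 14 members of complexes II and III, 2 were called lower with each of the 3 editors. Transcripts of the mitochondrial genome were lower for 7 of 13 members with SpCBE and higher for none. However, 1 was lower without SpCBE NRF1 replicate 1, whose share of mitochondrial counts was the lowest of the 6, and 2 were lower by DESeq2. With SaABE 7 were lower and none higher, while with SpABE 5 were higher and none lower.

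A cytosine editor works through uracil in DNA, and UNG, the main enzyme that removes it, fell with SpCBE. This uracil-DNA glycosylase had 65.6, 63.1 and 63.8 CPM in NRF1-guide libraries, against 117.1, 121.0 and 121.2 CPM in intergenic-guide libraries. Its log2 fold change of -0.90 ± 0.032 (SE, edgeR adjusted p = 2.2e-16) stood beside -0.95 with SpABE and -1.07 with SaABE, with a difference of 0.11 from their mean (edgeR adjusted p = 0.107). MPG, which removes alkylated bases and hypoxanthine, fell by 1.30 on the log2 scale. SAMHD1, which degrades deoxynucleotides, had 46.2, 44.7 and 47.7 CPM with the NRF1 guide, against 97.4, 99.99 and 96.6 CPM with the intergenic guide. SAMHD1 was the 1 called member of a list of deaminases and enzymes of the dUTP pool, in which 2 of 18 members were lower at the adjusted p and 1 higher, a share no larger than the 12% and 11% of all tested genes. In the base excision repair list, which holds UNG and MPG, 7 of 23 members were lower and 5 higher with SpCBE. With SpABE 8 were lower and 3 higher, and with SaABE 9 and 5. Over all tested genes 17.3% were lower and 15.4% higher with SpABE, and 15.5% and 16.9% with SaABE. The lowest log2 fold change in that list was -1.30 with SpCBE, -1.47 with SpABE and -1.48 with SaABE. In the list that holds SAMHD1 it was -1.08, -1.16 and -1.32. Falls of this size were thus not particular to the cytosine editor. With the intergenic guide, UNG stood at 119.8 ± 2.33 CPM with SpCBE and 149.6 ± 5.33 CPM with SpABE (SD, n = 3 each).

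The main test between editors set the SpCBE guide effect against the mean of the 2 adenine editors' effects. This test can also be passed where SpCBE differs from only 1 of them. It called 113 of 17743 genes (0.637%), with 52 differences above 0 (0.293%) and 61 below 0 (0.344%), while 464 (2.62%) and 483 (2.72%) passed the adjusted p alone. Against SpABE, 253 genes were called (1.43%), 101 above 0 (0.569%) and 152 below 0 (0.857%). Against SaABE, 109 were called (0.614%), 66 above 0 (0.372%) and 43 below 0 (0.242%). These 3 counts rest on the same SpCBE libraries and are not independent of one another. Of the 113 genes, 32 were also called in the SpCBE effect and 81 were not.

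**Figure D3:**
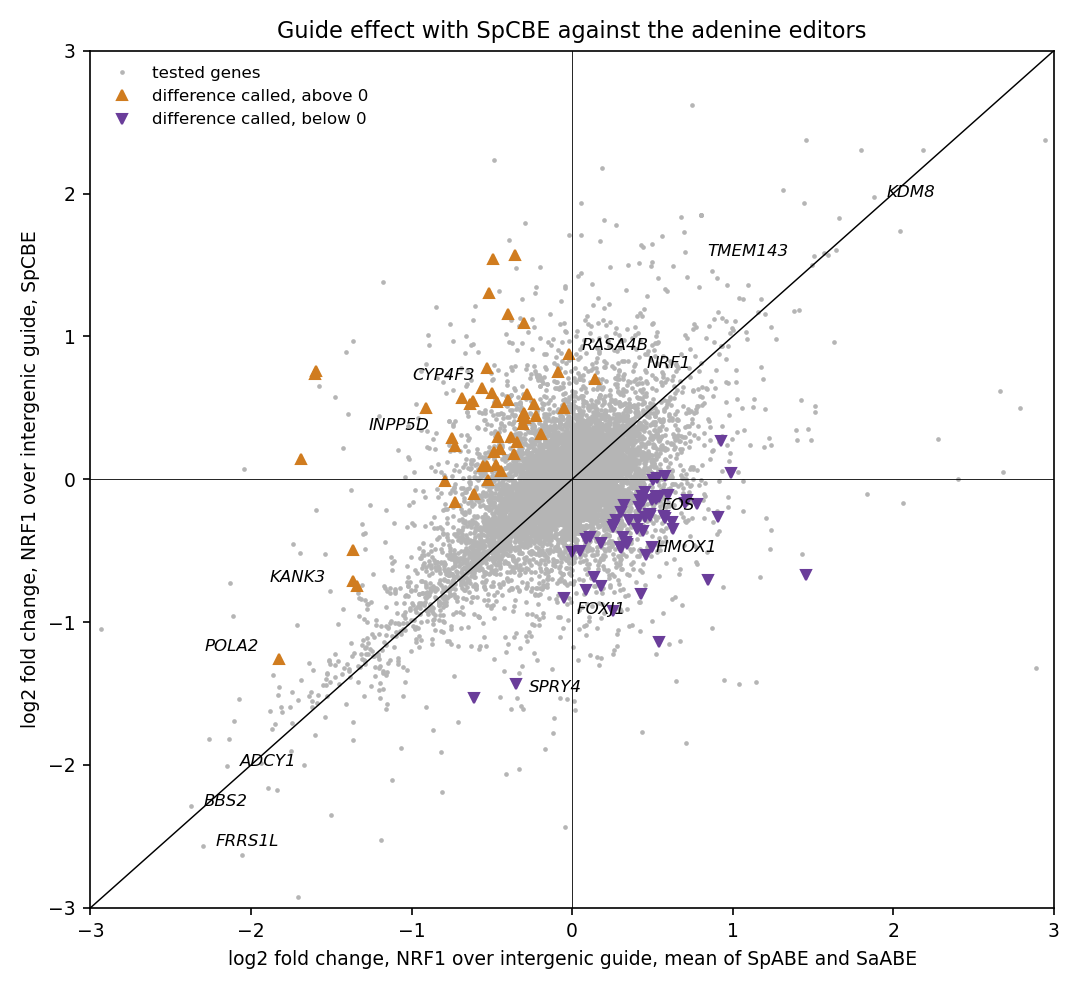
Guide effect of each tested gene with SpCBE (y axis, log2 fold change) against the mean of its effects with SpABE and SaABE (x axis, log2 fold change), with the diagonal marking equal effects, grey points for tested genes and coloured triangles for the genes called in the difference. 30 genes, 4 of them called in the difference, lie beyond the axes. The largest changes, such as KDM8 and BBS2, lie near the diagonal, and the genes below it at the centre include FOS and HMOX1.

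Immediate early genes, which encode transcription factors and phosphatases that respond within minutes to growth signals or stress, were higher for more members with either adenine editor than with SpCBE. At the adjusted p, SpCBE had 1 of 37 higher and 9 lower, while 30 were higher and 1 lower with SpABE and 17 higher and none lower with SaABE. The background over all tested genes was 11% higher and 12% lower with SpCBE, 15.4% and 17.3% with SpABE and 16.9% and 15.5% with SaABE. The median log2 fold change was -0.08 with SpCBE, 0.34 with SpABE and 0.19 with SaABE. The difference between the SpCBE effect and the adenine editors' mean was below 0 for 21 of the 37 genes at the adjusted p and above 0 for 1. Over all tested genes these shares were 2.72% and 2.62%. Of the 37 genes 10 were called below 0, against 0.344% of all tested genes.

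GADD45B, a stress-responsive partner of p38 kinase signalling, had 31.2, 31.2 and 32.4 CPM in the SpCBE NRF1-guide libraries, against 38.4, 35.5 and 38.3 CPM in the SpCBE intergenic-guide libraries. With SpABE it had 64.8, 62.7 and 62.4 CPM with the NRF1 guide, against 44.2, 41.9 and 43.2 CPM with the intergenic guide. The direction was opposite in the 2 editors and neither pair of groups overlapped. The difference from the adenine editors' mean was -0.73 ± 0.046 (SE, edgeR adjusted p = 4.1e-10). FOS, the partner of JUN in the AP-1 factor, had 13.6, 12.6 and 14.8 CPM with SpCBE and the NRF1 guide, against 17.6, 15.6 and 15.3 CPM with the intergenic guide. With SpABE it had 60.3, 59.9 and 60.6 CPM with the NRF1 guide, against 37.9, 36.9 and 36.3 CPM with the intergenic guide. FOS thus stood lower in SpCBE than in SpABE libraries with either guide, and the gap was wider with the NRF1 guide, at -2.14 on the log2 scale, than with the intergenic guide, at -1.20.

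JUNB, another AP-1 member, had 25.99, 24.9 and 27.9 CPM in the SpCBE NRF1-guide libraries, against 34.0, 30.3 and 32.02 CPM in the SpCBE intergenic-guide libraries. Its difference was -0.70 ± 0.066 (SE, edgeR adjusted p = 4.7e-07). For JUNB the intergenic-guide level was 0.50 higher on the log2 scale with SpCBE than with SpABE. DUSP1, a phosphatase that switches off MAP kinases, had 45.3, 46.9 and 47.3 CPM with SpCBE and the NRF1 guide, against 50.5, 47.9 and 50.2 CPM with the intergenic guide, a log2 fold change of -0.09 that did not pass the test (edgeR adjusted p = 0.072). With SpABE DUSP1 rose by 0.72 and with SaABE by 0.19, and the difference was -0.54 (edgeR adjusted p = 1.7e-08). With the intergenic guide, DUSP1 stood at 49.5 CPM with SpCBE and 49.1 CPM with SpABE. PPP1R15A, which reverses the stress-induced block of translation, had a difference of -0.39 (edgeR adjusted p = 1.7e-08). EGR3, a zinc finger factor, and ARC, a synaptic protein, had differences of -0.86 and -0.74, and VGF, a secreted neuronal peptide precursor, one of -0.97. In SpCBE EGR3 averaged 2.26 CPM with the NRF1 guide and 2.54 CPM with the intergenic guide, and VGF 3.26 and 4.57 CPM. Both reached 5 CPM only over all 18 libraries. The log2 fold change of EGR3 was -0.16 with SpCBE (edgeR adjusted p = 0.534), 1.02 with SpABE and 0.38 with SaABE. That of VGF was -0.47, 0.67 and 0.32.

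HMOX1, the haem oxygenase induced by oxidative stress and haem, had the smallest p of all differences named here. Its level was 93.0, 89.3 and 89.4 CPM in the SpCBE NRF1-guide libraries, against 113.0, 119.7 and 116.4 CPM in the SpCBE intergenic-guide libraries. With SpABE it was 158.4, 161.5 and 158.8 CPM with the NRF1 guide, against 79.6, 89.7 and 89.0 CPM with the intergenic guide. With SaABE the guides differed by 0.00 on the log2 scale, with 90.3 CPM for the NRF1 guide and 90.2 CPM for the intergenic guide. The difference of the SpCBE effect from the adenine editors' mean was -0.81 ± 0.046 (SE, edgeR adjusted p = 6.5e-11), -1.25 against SpABE and -0.36 against SaABE. NFE2L2 is the oxidative stress factor that drives HMOX1. Its 22 tested targets include HMOX1. Of the 22, 4 had differences below 0 at the adjusted p and none above 0, against 2.72% and 2.62% of all tested genes. With SpCBE 5 of the 22 were higher and 2 lower, against 11 and 1 with SpABE and 6 and 3 with SaABE. Shares of all tested genes, higher and lower, were 11% and 12% with SpCBE. They were 15.4% and 17.3% with SpABE and 16.9% and 15.5% with SaABE.

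**Figure D4:**
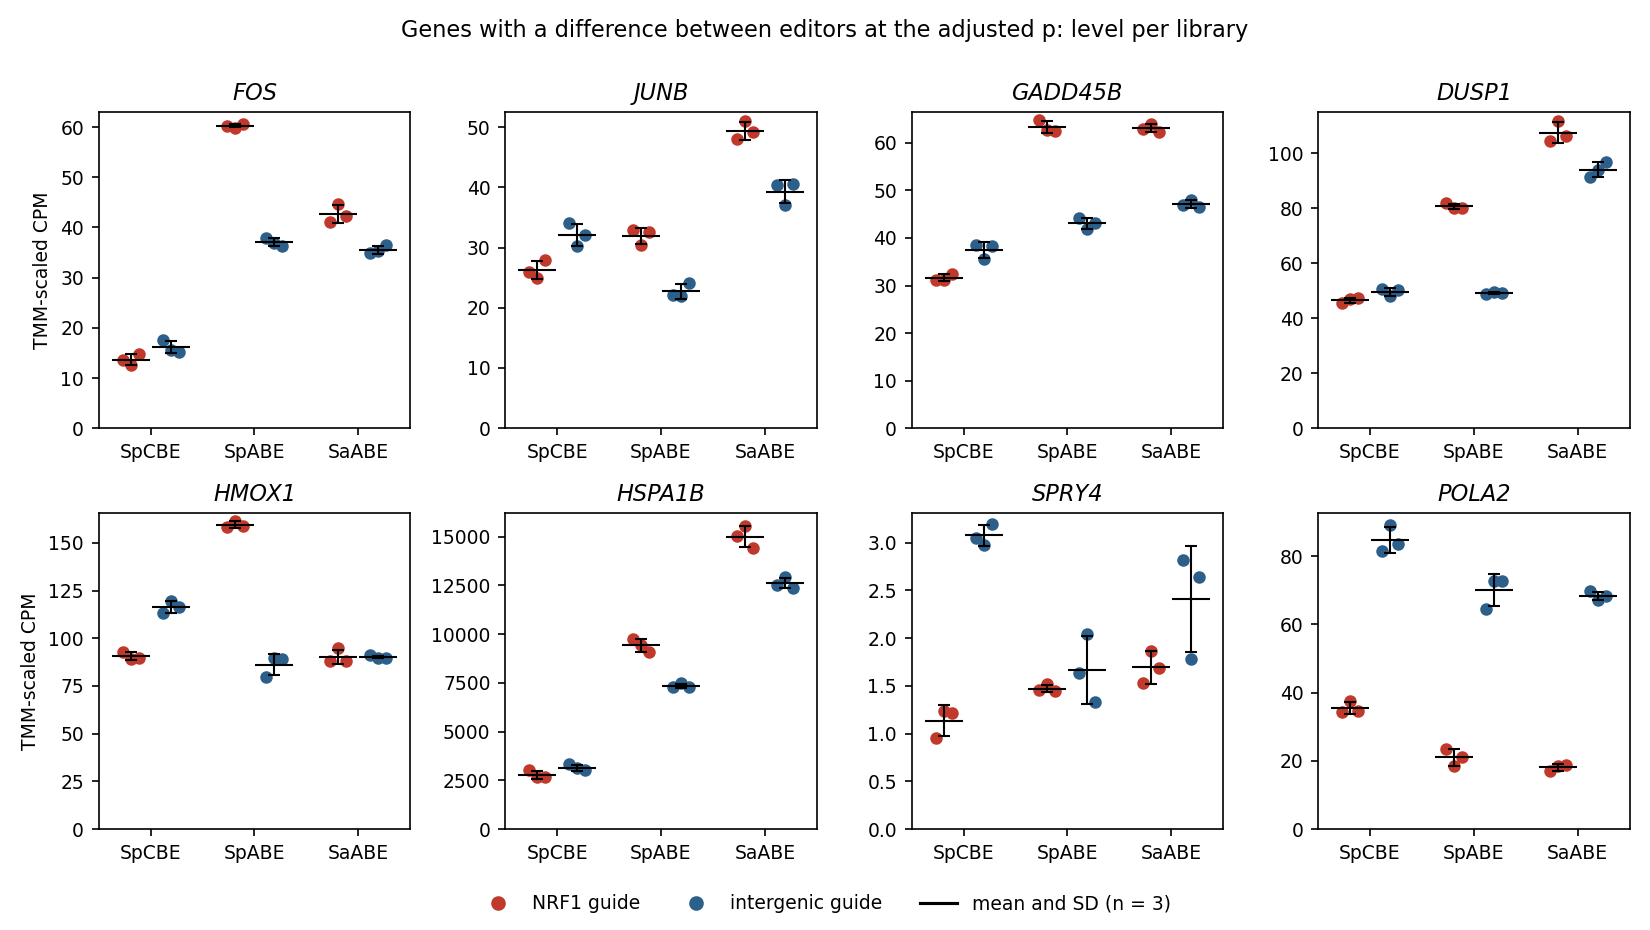
Level per library (y axis, TMM-scaled CPM, starting at 0) of 8 genes whose guide effect differed between SpCBE and the adenine editors at the adjusted p, by editor (x axis), with red points for NRF1-guide libraries, blue points for intergenic-guide libraries and black bars for mean and SD (n = 3). HMOX1 was lower with the NRF1 guide than with the intergenic guide in SpCBE (90.6 and 116.4 CPM) and higher in SpABE (159.6 and 86.1 CPM).

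Heat shock genes, which encode chaperones, were higher for fewer members with SpCBE than with the adenine editors. Of 26 members 2 were higher with SpCBE and 7 lower, against 15 higher and 4 lower with SpABE and 15 higher and 5 lower with SaABE. Over all tested genes the shares higher and lower were 11% and 12% with SpCBE, 15.4% and 17.3% with SpABE and 16.9% and 15.5% with SaABE. The difference was below 0 for 13 members (2.72% of all tested genes) and above 0 for none (2.62%), and for 7 below 0 without SpCBE NRF1 replicate 2. HSPA1B, an inducible HSP70 whose near-identical copy HSPA1A makes its share of reads uncertain, had 3026, 2685 and 2653 CPM in the SpCBE NRF1-guide libraries, against 3318, 3123 and 3008 CPM in the SpCBE intergenic-guide libraries. The SpCBE groups overlapped by 1 library. Its difference was -0.48 (edgeR adjusted p = 1.2e-06), and with the intergenic guide it stood 1.22 lower on the log2 scale with SpCBE than with SpABE. HSPB1, a small heat shock protein, had a difference of -0.38 and BAG3, a co-chaperone, -0.27 (edgeR adjusted p = 5.3e-05 and 0.0002). HSPA4L and CHORDC1, chaperone and co-chaperone, fell with SpCBE by 0.76 and 0.48 on the log2 scale, and both hold the NRF1 motif in their promoters. The lowest log2 fold change in the list was -0.755 with SpCBE, -0.813 with SpABE and -1.557 with SaABE. Falls of that size in the list were thus not particular to SpCBE.

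Genes of the unfolded protein response, which restores folding in the endoplasmic reticulum, were lower for 7 of 21 members with SpCBE and higher for none, against 9 higher and 1 lower with SpABE and 8 higher and 2 lower with SaABE. The shares of all tested genes, higher and lower, were 11% and 12% with SpCBE, 15.4% and 17.3% with SpABE and 16.9% and 15.5% with SaABE. Under another scaling (RLE) 4 were lower with SpCBE, and 3 without SpCBE NRF1 replicate 2. The difference was below 0 for 10 members (2.72% of all tested genes) and above 0 for none (2.62%). HSPA5, the main chaperone of that compartment, had 825.5, 794.9 and 818.6 CPM with SpCBE and the NRF1 guide, against 883.5, 898.0 and 923.4 CPM with the intergenic guide, and a difference of -0.22 (edgeR adjusted p = 7.9e-05). XBP1, a transcription factor of the response, had a difference of -0.23 and CANX, a lectin chaperone, -0.20.

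Genes of DNA replication and the G1/S transition differed in the other direction. With SpCBE 19 of 49 were higher and 6 lower, against 6 higher and 28 lower with SpABE and 13 higher and 8 lower with SaABE. Of all tested genes 11% were higher and 12% lower with SpCBE, 15.4% and 17.3% with SpABE and 16.9% and 15.5% with SaABE. The list's median log2 fold change was 0.07 with SpCBE, -0.11 with SpABE and 0.05 with SaABE, so that SpABE stood furthest from SpCBE. The difference was above 0 for 17 members at the adjusted p (2.62% of all tested genes) and below 0 for none (2.72%). MCM5, a subunit of the replicative helicase, had 242.1, 245.9 and 239.1 CPM in the SpCBE NRF1-guide libraries, against 227.0, 228.6 and 225.9 CPM in the SpCBE intergenic-guide libraries. Its log2 fold change was 0.09 with SpCBE, -0.50 with SpABE and -0.08 with SaABE, so the gap to SpABE was the larger, and the difference from the adenine editors' mean was 0.38 (edgeR adjusted p = 3.7e-07). UHRF1, which keeps DNA methylation through replication, fell with all editors, with -0.33 for SpCBE, -0.63 for SpABE and -0.37 for SaABE.

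POLA2, the B subunit of DNA polymerase alpha, was the only member of that list called in the difference. It had 34.3, 37.5 and 34.6 CPM in the SpCBE NRF1-guide libraries, against 81.6, 89.1 and 83.7 CPM in the SpCBE intergenic-guide libraries. With SpABE it had 23.4, 18.4 and 21.3 CPM with the NRF1 guide, against 64.6, 72.9 and 72.7 CPM with the intergenic guide. The log2 fold change was -1.26 with SpCBE, -1.74 with SpABE and -1.91 with SaABE, and the difference was 0.57 ± 0.074 (SE, edgeR adjusted p = 4.3e-05). The motif window of POLA2 is among those printed above.

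Cholesterol and fatty acid synthesis genes were higher for 10 of 27 members with SpCBE and lower for none, against 3 higher and 6 lower with SpABE and 6 higher and 5 lower with SaABE. The adenine editors' counts lay near their shares of all tested genes, 15.4% higher and 17.3% lower with SpABE and 16.9% and 15.5% with SaABE, while those with SpCBE were 11% and 12%. The differences of 5 members passed the adjusted p, all above 0, against 2.62% above and 2.72% below 0 over all tested genes. FDFT1, which makes squalene, had 104.5, 103.9 and 102.6 CPM with SpCBE and the NRF1 guide, against 92.9, 94.5 and 95.7 CPM with the intergenic guide, and INSIG1, a brake on the pathway, had a difference of 0.23 (edgeR adjusted p = 0.0082). No member passed the fold threshold.

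**Figure D5:**
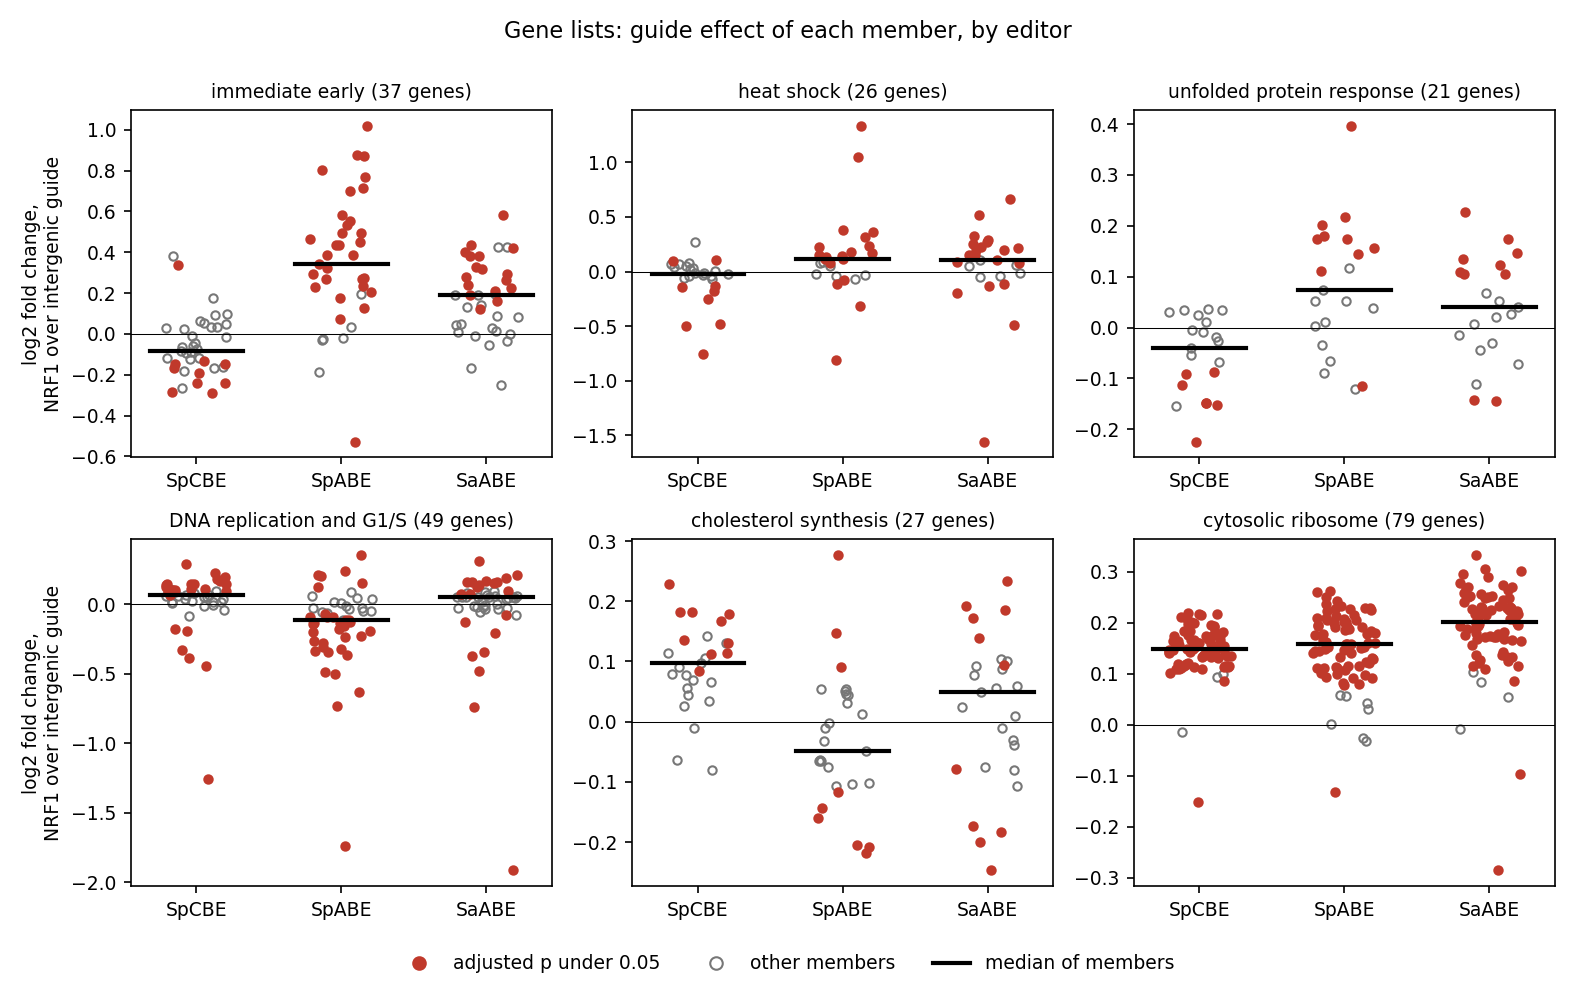
Log2 fold change between NRF1 and intergenic guide (y axis, with its own range in each panel) of the tested members of 6 gene lists, by editor (x axis), with filled red points for members past an adjusted p of 0.05, open points for the others and a bar at the median. The median of immediate early genes was -0.08 with SpCBE, 0.34 with SpABE and 0.19 with SaABE. That of cytosolic ribosomal protein genes was 0.15 with SpCBE, 0.16 with SpABE and 0.20 with SaABE.

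Genes called both in the SpCBE effect and in its difference from the adenine editors numbered 32. Of these, 18 rose with SpCBE with a difference above 0, 11 fell with a difference below 0 and 3 fell with a difference above 0, namely POLA2, KANK3 and SEC31B. In 17 of the 32 neither adenine editor's own effect was called, but 25 of the 32 averaged under 5 CPM in the SpCBE libraries. The genes given next from the 32, other than CYP4F3, RASA4B, SELENOP, KANK3, POLA2 and FOXJ1, were chosen after their values were seen. SPRY4, an inhibitor of growth factor signalling, had 0.954, 1.24 and 1.22 CPM with SpCBE and the NRF1 guide, against 3.05, 2.98 and 3.20 CPM with the intergenic guide. Its log2 fold change was -1.43, against -0.19 with SpABE and -0.51 with SaABE, and the difference was -1.08 (edgeR adjusted p = 0.00426). FOXJ1, a master factor of motile cilia, had 2.21, 2.22 and 2.38 CPM in the SpCBE NRF1-guide libraries, against 4.30, 3.62 and 4.24 CPM in the SpCBE intergenic-guide libraries. Its difference was -0.78 (edgeR adjusted p = 6.2e-05), and its level with the intergenic guide was 2.02 lower on the log2 scale with SpCBE than with SpABE. L1CAM, a neural adhesion protein, fell by 0.74 on the log2 scale with SpCBE and ZNF467 fell by 0.51, and neither was called with an adenine editor.

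CYP4F3, a cytochrome P450 that inactivates leukotriene B4, had 4.93, 6.25 and 4.87 CPM with SpCBE and the NRF1 guide, against 3.44, 4.12 and 2.86 CPM with the intergenic guide. With SpABE it had 7.33, 6.34 and 7.12 CPM with the NRF1 guide, against 13.1, 12.4 and 10.3 CPM with the intergenic guide. The difference from the adenine editors' mean was 1.11 ± 0.162 (SE, edgeR adjusted p = 0.000166). INPP5D, an inositol phosphatase also known as SHIP1, had 16.9, 16.9 and 16.3 CPM with SpCBE and the NRF1 guide, against 13.5, 15.4 and 11.97 CPM with the intergenic guide. It fell by 0.76 with SpABE and by 0.74 with SaABE on the log2 scale, and the difference was 1.04 ± 0.087 (SE, edgeR adjusted p = 6.6e-08). RASA4B, a Ras GTPase-activating protein whose near-identical paralogs make its count uncertain, rose by 0.88 with SpCBE and changed by -0.07 and 0.03 with SpABE and SaABE.

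SELENOP, a selenium carrier, had 10.3, 8.70 and 9.66 CPM with SpCBE and the NRF1 guide, against 6.69, 6.69 and 6.92 CPM with the intergenic guide. Its difference of 0.55 (edgeR adjusted p = 0.00501) went to 0.496 without SpCBE NRF1 replicate 1 and to 0.499 without SaABE NRF1 replicate 2, just under the fold threshold. KANK3, a regulator of actin, had a difference of 0.60 (edgeR adjusted p = 0.0148), with an adjusted p of 0.0625 without SpCBE NRF1 replicate 2. The read-through gene PPAN-P2RY11, with a difference of 0.66, had an adjusted p of 0.066 without SpCBE NRF1 replicate 3 and of 0.0502 without SpCBE intergenic replicate 1. The pseudogene RPL24P4, with -0.85, had adjusted p-values of 0.0552, 0.0593 and 0.0776 without SpCBE NRF1 replicate 1, NRF1 replicate 2 or intergenic replicate 3. Pseudogenes and read-through genes share reads with their relatives and are uncertain for that reason. METTL7A (0.57), the noncoding RNA PVT1 (0.60), the pseudogene RRP7BP (0.68) and C11orf96 (-0.95) completed the named differences. In SpCBE C11orf96 averaged 3.07 CPM with the NRF1 guide and 3.47 CPM with the intergenic guide (edgeR adjusted p = 0.345). It rose by 1.00 with SpABE and by 0.55 with SaABE on the log2 scale. The SpCBE effect itself did not pass the adjusted p for EGR3, C11orf96, METTL7A, PPAN-P2RY11 and RPL24P4.

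Few of these genes held the NRF1 motif. Among promoters of genes whose difference was called above 0, 2 of 52 held the NRF1 motif (3.85%), and among those called below 0, 3 of 61 (4.92%), against 12.9% of all tested genes. POLA2 and VGF held a match among the named genes whose promoters were read, which leaves out PVT1, EGR3 and ARC. The promoters of FOS, JUNB, GADD45B, DUSP1 and HMOX1 held none in the 300 bases read.

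Sites that resemble the guides elsewhere in the genome were searched with up to 3 mismatches. For the NRF1 guide there was none with 1 mismatch, and 1 site had 2 mismatches, next to an NAG motif. A further 10 sites next to NGG and 16 next to NAG had 3 mismatches. Only 9 tested genes held such a site. The other sites, among them the one with 2 mismatches, lay between genes or in genes not tested, and have no readout here. At the adjusted p alone 2 of the 9 genes rose and 4 fell, beside shares of 11% and 12% over all tested genes. Of the 9 genes 1, PDE11A, was called, against 4.45% of all tested genes, with a log2 fold change of -0.65 in SpCBE beside -0.53 in SpABE, whose guide is a different one. None of the 9 was called in the difference from the adenine editors. BACH1 passed the adjusted p alone there, with a difference of -0.18 (edgeR adjusted p = 0.0162). Its log2 fold change was -0.02 with SpCBE and 0.23 with SpABE. A site like the intergenic guide was held by 13 tested genes, none of which was called, with 2 higher and 1 lower by the adjusted p alone. Within 500000 bases of the NRF1 site 11 genes were tested, and besides NRF1 only ENSG00000273329, a gene on the opposite strand that starts beside the NRF1 start and runs away from it, was called, with a log2 fold change of -0.50 at 2.54 ± 0.120 CPM with the NRF1 guide and 3.59 ± 0.153 CPM with the intergenic guide (SD, n = 3 each; edgeR adjusted p = 0.0177).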

How the data were processed

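Polyadenylated RNA of HEK293T cells was sequenced from a stranded mRNA kit in 18 libraries, of which the 6 SpCBE libraries are described. The authors trimmed reads with Cutadapt 1.18 and aligned them with STAR 2.7.0f to hg38 with GENCODE 30, with DESeq2 1.46.0 among the tools of the submitters' processing notes. For the read counter and its strand setting the entry is: not given in the sources used here. Hence antisense, overlapping and near-identical genes are uncertain. The authors deposited estimated counts per gene without normalization: 19.63% of nonzero values were not whole, and they were rounded before testing, where the design had assumed whole values. The table holds 58870 genes and 36 sample columns, of which 18 belong to samples not used here. No line lacked a gene.

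Genes were filtered with filterByExpr by group, which left 17743, scaled by TMM and tested by edgeR 4.0.16 (R 4.3.3) quasi-likelihood F-tests with 6 group means over 18 libraries and Benjamini-Hochberg adjustment. Calls were made at adjusted p-values below 0.05 where the log2 fold change lay beyond 0.5 either way, after the study's methods. Differences between editors were tested as interaction contrasts. The biological coefficient of variation was 3.1%. Levels are TMM-scaled CPM, and sums of markers use raw library totals. In simulated data with 17493 genes, changes were put into 100 genes for each fold, all averaging at least 1 CPM. Among these the SpCBE effect recovered 85% of 1.5-fold and 95% of 2-fold changes, and the difference 83% and 88%. Recovery in genes below 1 CPM was not tested. Counts of every replicate pair differed by more than sampling noise (chi-square per degree of freedom 1.92 to 3.42 in SpCBE groups). A design of 3 against 3 libraries cannot go below an exact permutation p of 0.1, so no such p is given.

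The text names 4 genes of the study (NRF1, PUDP, ANKRD26, YEATS4), the 12 largest rises and falls with SpCBE, the 10 largest differences from the adenine editors in each direction and up to 5 members of each list, with a mean of at least 5 CPM over the 6 SpCBE libraries for rises and falls and over all 18 for differences. Of these, 1 is not reported here. The members, lists and rules were chosen with earlier results of these data known. Promoters, motif matches and guide sites were read from hg38 and GENCODE 44. Alternatives were RLE scaling, DESeq2 1.42.0 Wald tests, other filters and thresholds, a replicate block, fewer editors and leaving out each library.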

Additional observations from a re-analysis of the deposited data

Results flagged for a closer look

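The guide effect of SpCBE differed from the mean of the adenine editors past both thresholds (edgeR interaction test) for the following named genes, given as log2 differences. Above 0 were CYP4F3 (1.11), INPP5D (1.04), RASA4B (0.90), RRP7BP (0.68), PPAN-P2RY11 (0.66), PVT1 (0.60), KANK3 (0.60), METTL7A (0.57), POLA2 (0.57) and SELENOP (0.55). Below 0 were VGF (-0.97), C11orf96 (-0.95), EGR3 (-0.86), RPL24P4 (-0.85), HMOX1 (-0.81), FOXJ1 (-0.78), ARC (-0.74), GADD45B (-0.73), FOS (-0.72) and JUNB (-0.70). Some of these did not pass the adjusted p against 1 of the adenine editors alone. Against SaABE these were EGR3, KANK3 and SELENOP (edgeR adjusted p = 0.137, 0.140 and 0.0946). Against SpABE they were PPAN-P2RY11 and RPL24P4 (edgeR adjusted p = 0.236 and 0.0549). The SpCBE and SpABE effects had opposite signs, each past the adjusted p, for CYP4F3, INPP5D, RRP7BP, PVT1, VGF, HMOX1, ARC, GADD45B, FOS and JUNB.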

How the results depend on the processing

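Counts of called genes moved most with the thresholds. At the adjusted p alone 4090 genes passed in the SpCBE effect, 947 in its difference from the mean of the adenine editors, 1590 in that from SpABE and 726 in that from SaABE, and with an absolute log2 fold change over 1 the counts were 253, 28, 83 and 23. DESeq2 called 63 genes in the difference from the adenine mean and 50 in that from SaABE, and without a filter on low counts 211 and 219 were called; the cause was not tested. All other alternatives, leaving out a library included, stayed within 1.5 times. Leaving out 1 library gave 727 to 749 calls in the SpCBE effect, 84 to 127, 202 to 246 and 81 to 137 in the 3 differences. Replicate numbers did not clearly pair the SpCBE libraries. Correlations of deviations were 0.031, 0.042 and 0.102 for the same number and -0.141 to 0.0805 for different numbers. In SpABE the same numbers gave 0.158, 0.113 and 0.126, all above the -0.165 to 0.0462 of different numbers. In SaABE the same numbers gave -0.388, -0.345 and -0.0701. The main tests left replicate numbers out. A fit with a replicate block called 747 genes in the SpCBE effect and 86, 209 and 92 in the differences, against 113, 253 and 109 without it. The genes of the study and the largest rises, falls and differences kept their sign under the alternatives run for them, and 4 of the differences lost their call, with the values given above. Single list members were not rerun. Of 290 counts of list members recomputed, 40 moved by over 1.5 times. The median log2 fold change of all genes was 0.016 under RLE. Genes under about 5 CPM are the least certain at this depth.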
